A study of Mus musculus with 14 samples.

Results

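The interferon response genes described here are 38 named mouse genes that make, relay or carry out the response to interferon, or that prepare peptides for display on class I molecules. They are listed by name, and no peak value enters the rule that defines them. The names were, however, chosen with earlier results of these data known. All 38 had a position in the RefSeq gene table of mouse assembly GRCm38.p6 (mm10), which lists 21883 protein-coding genes on the chromosomes used; Mx1 and Mx2 are listed there as transcribed pseudogenes and were kept as named. The genes lie in 31 separate loci when gene bodies with 20 kb either side are joined. Every deposited peak in a gene body or within 20 kb of it was taken. A gene-end peak overlapped the 1 kb either side of the first or last base of the gene, because the gene table gives no strand. An away region lay within 20 kb of a gene body and more than 1 kb from the end of any protein-coding gene.

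Interferons are secreted proteins that warn neighbouring cells of infection. Type I interferons signal through the receptor chains Ifnar1 and Ifnar2, and interferon gamma through Ifngr1 and Ifngr2; both use JAK kinases and STAT proteins, which move to the nucleus and switch on interferon-stimulated genes. Stat2 and Irf9 act together at the interferon-stimulated response element (ISRE), STAT dimers bind the gamma-activated site (GAS), and NF-kB, the factor family to which RELA belongs, binds kappa-B sites in many of the same genes. Neural stem cells are known to respond to interferon.

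Chromatin accessibility was measured with ATAC-seq (Tn5 transposase cuts open DNA and leaves adapters there) on 50000 cultured mouse neural stem cells (mNSC) per library, in 14 libraries forming 7 groups of 2. ZR cells carry the ZFTA-RELA fusion, a driver of supratentorial ependymoma, and EV cells an empty vector; how the fusion was introduced and whether a line is a single clone are not given in the labels. ZR_GSK343 denotes ZFTA-RELA cells given GSK343, an inhibitor of the histone methyltransferase EZH2, at 10 µM for 96 h. ZR_dmCitra denotes ZFTA-RELA cells with dmCitra in the title and citraconate at 10 mM in the treatment label, and ZR_DMSO denotes ZFTA-RELA cells titled DMSO. Citraconate is described by the submitters as an antagonist of ACOD1, the enzyme that makes itaconate. In a second set of libraries, Citraconate_50K carries the ZFTA-RELA label and 10 mM citraconate, and DMSO_50K the empty-vector label and DMSO, so that the effects of treatment and of cell line in this set cannot be told apart. Citraconate was given for 24 h or 48 h, with neither time tied to a library. All cells were grown with EGF and basic FGF, and no group was given interferon according to the labels. No label says that replicates are separate cultures, so their spread may be technical.

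Several libraries stood apart or carried labels at odds with their titles or data. The ZR_DMSO lists held 12390 and 20881 peaks on the chromosomes used, of median width 226 and 186 bp, and carry a PBS vehicle label; the 2 ZR_GSK343 lists held 19239 and 57210 peaks, and the other lists between 29432 and 60346. EV replicate 1 has a DMSO vehicle label and EV replicate 2 a PBS one, as do the ZR libraries. A set of 31 away regions near interferon genes was present in ZR and not in EV at equal list length. The 2 DMSO_50K libraries, labelled empty vector, had peaks at 26 and 28 of them. They had 79.3% and 85% of all 8342 such regions near any protein-coding gene. The deposited EV lists had 0 and 1 of the 31, which follows largely from how these regions were chosen. Neural stem cell markers had gene-end peaks at 2 to 8 of 10 genes per library. Sox2 and Sox1 had one in both EV lists and in no other list, the DMSO_50K lists included. Fabp7, Hes5, Sox9 and Vim had one in both deposited lists of EV and of ZR. Of 10 microglia and macrophage markers 0 to 5 had one. Tmem119, Cd68 and Spi1 had one in most deposited lists and P2ry12 and Trem2 in fewer. Aif1, Cx3cr1, Csf1r, Ptprc and Itgam had none in any library. Lymphocyte markers reached at most 1 of 4, endothelial markers 1 of 3 and neuronal markers 3 of 4. Their part in the results was not tested. In bulk cells, fewer cells with an open site and less opening per cell cannot be told apart.

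The promoters of 7 genes that the comparisons turn on are printed from RefSeq (GRCm38.p6), 250 bases before to 50 after a listed start site, in the gene's direction. Capitals mark an ISRE (GAAA, any 2 bases, GAAA), a GAS (TTCNNNGAA) or an NF-kB consensus, searched on both strands. Ifi209, Irf5 and Irf7 gained a gene-end peak in ZR cells, Ifi44 lost one, Irf1 gained one under GSK343, and Stat2 and Rsad2 had one in every deposited list.
Ifi209 (chr1:173630609-173630908, plus strand): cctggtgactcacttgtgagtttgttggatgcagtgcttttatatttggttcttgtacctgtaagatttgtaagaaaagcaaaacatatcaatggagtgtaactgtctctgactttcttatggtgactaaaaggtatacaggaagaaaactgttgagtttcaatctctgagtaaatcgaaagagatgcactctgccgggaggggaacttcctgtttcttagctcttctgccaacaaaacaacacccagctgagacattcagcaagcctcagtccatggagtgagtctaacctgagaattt
Irf5 (chr6:29526375-29526674, plus strand): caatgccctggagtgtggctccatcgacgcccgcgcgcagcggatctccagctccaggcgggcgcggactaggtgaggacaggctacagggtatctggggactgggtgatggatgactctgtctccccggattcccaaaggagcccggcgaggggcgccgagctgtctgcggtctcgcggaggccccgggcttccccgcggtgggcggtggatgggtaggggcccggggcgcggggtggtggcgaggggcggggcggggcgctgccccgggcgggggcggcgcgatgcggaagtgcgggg
Irf7 (chr7:141266375-141266674, minus strand): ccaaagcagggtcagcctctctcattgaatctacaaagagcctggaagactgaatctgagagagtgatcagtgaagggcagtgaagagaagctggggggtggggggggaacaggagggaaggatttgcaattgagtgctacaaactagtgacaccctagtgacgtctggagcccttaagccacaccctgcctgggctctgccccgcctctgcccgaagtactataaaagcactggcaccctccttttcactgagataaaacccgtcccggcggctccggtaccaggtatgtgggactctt
Ifi44 (chr3:151749861-151750160, minus strand): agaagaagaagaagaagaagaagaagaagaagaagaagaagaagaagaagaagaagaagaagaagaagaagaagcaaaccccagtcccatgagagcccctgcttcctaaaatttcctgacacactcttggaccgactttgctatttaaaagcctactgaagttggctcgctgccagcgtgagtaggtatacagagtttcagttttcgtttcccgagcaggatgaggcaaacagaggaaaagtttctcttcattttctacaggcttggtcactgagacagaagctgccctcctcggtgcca
Irf1 (chr11:53769764-53770063, plus strand): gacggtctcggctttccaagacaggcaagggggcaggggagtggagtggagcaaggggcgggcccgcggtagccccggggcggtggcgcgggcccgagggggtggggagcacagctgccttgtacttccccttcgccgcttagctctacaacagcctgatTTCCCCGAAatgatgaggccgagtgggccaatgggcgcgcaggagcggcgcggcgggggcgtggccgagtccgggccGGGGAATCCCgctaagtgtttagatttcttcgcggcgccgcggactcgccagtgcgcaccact
Stat2 (chr10:128270248-128270547, plus strand): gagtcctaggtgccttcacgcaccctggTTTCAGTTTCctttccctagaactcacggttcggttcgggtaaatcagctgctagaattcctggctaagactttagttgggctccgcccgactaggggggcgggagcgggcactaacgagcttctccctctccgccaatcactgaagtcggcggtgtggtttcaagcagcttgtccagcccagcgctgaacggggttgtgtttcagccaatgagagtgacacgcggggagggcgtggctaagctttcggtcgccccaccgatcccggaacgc
Rsad2 (chr12:26456403-26456702, minus strand): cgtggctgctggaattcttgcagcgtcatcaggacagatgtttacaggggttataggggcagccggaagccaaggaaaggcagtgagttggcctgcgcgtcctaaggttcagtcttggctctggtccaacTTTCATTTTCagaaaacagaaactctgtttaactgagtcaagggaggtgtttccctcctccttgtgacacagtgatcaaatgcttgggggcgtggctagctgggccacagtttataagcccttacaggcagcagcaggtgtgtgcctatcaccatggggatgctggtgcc

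The table of promoters held 36 for 31 of the 38 genes; Mx1, Mx2, Oas2, Tap2, Usp18, Dhx58 and Ifi204 had no entry. The ISRE letters were in 33.3% of the 36 promoters, against 3.35% of all 21262 promoters of the same length. The GAS letters were in 22.2% against 7.69%, and the NF-kB consensus in 16.7% against 4.81%. The promoters of Irf2 and of Bst2, the antiviral tether that holds virions at the cell surface, held all of these motifs. That of Isg15, the ubiquitin-like protein joined to other proteins after interferon, held 3 overlapping ISRE matches. None of these letters were in the promoters of Ifi209, Irf5, Irf7 and Ifi44 shown above. Of the 12 genes with an ISRE, 3 had a peak over a promoter window in every deposited list (Irf2, Stat2 and Rsad2) and Ifit3 had one in none; the median was 11 of 14 lists, and 9 of 14 for the 19 genes without an ISRE.

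Of the 4 receptor genes, Ifngr1, Ifnar1 and Ifnar2 had a gene-end peak in all 14 deposited lists and Ifngr2 in 13. To compare libraries, each list was reduced to its 12390 peaks of highest −log10 q, the length of the shortest list; a rank is a peak's place in its list by −log10 q, with 1 the highest. In every library at this length, 4 genes had a gene-end peak: Stat2, Usp18, Ifngr1 and Ifnar1. In the deposited lists 13 genes had one in all 14 libraries, adding Irf2, Mx2, Rsad2, Psmb9, Tap1, Gbp2, Gbp3, Ifi204 and Ifnar2. Irf4, Ifit3, Oas2 and Dhx58 had none in any list. Oas3, Oasl2 and Psmb8 had one in 1, 1 and 2 lists.

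**Figure D1:**
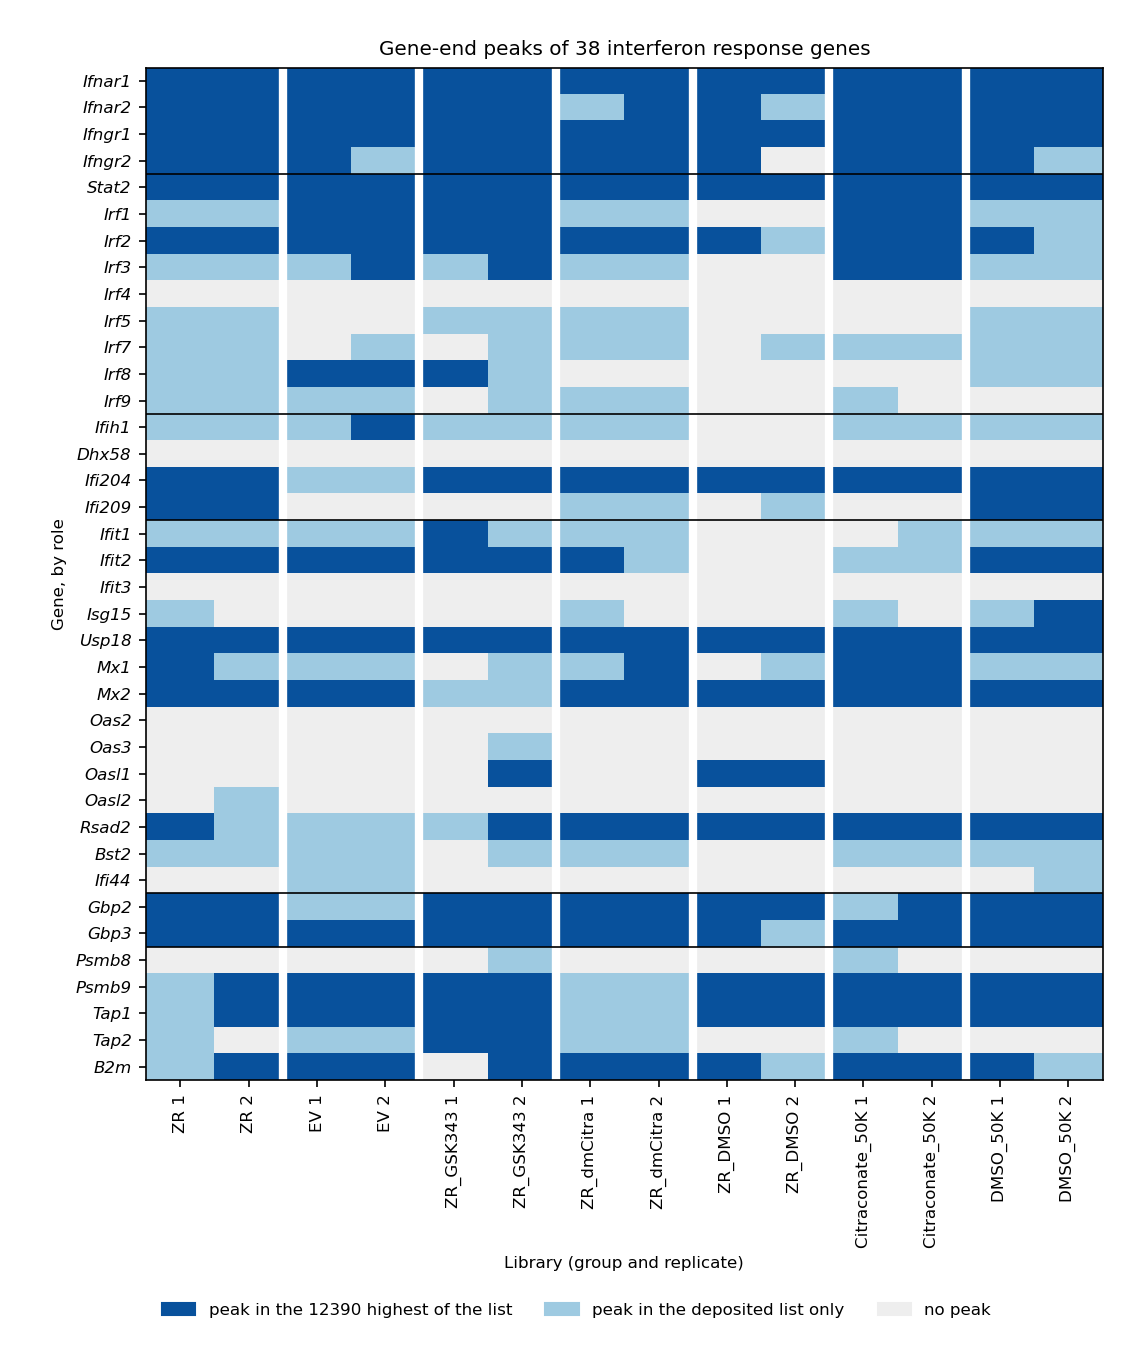
Gene-end peak status of the 38 interferon response genes (rows, by role, with lines between roles) in the 14 libraries (columns). Dark cells mark a peak among the 12390 highest of the list, light blue cells a peak in the deposited list only, and grey cells no peak; Stat2, Usp18, Ifngr1 and Ifnar1 are dark in all 14 libraries.

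The rank of the Ifngr1 peak was 1368 and 1083 in ZR, 280 and 344 in EV, 443 and 569 in ZR_GSK343, 3010 and 1510 in ZR_dmCitra, 1777 and 1423 in ZR_DMSO, 1082 and 929 in Citraconate_50K, and 810 and 706 in DMSO_50K. Both EV libraries thus ranked it above every other library. Ifnar1 ranked 1968 and 1349 in ZR, 872 and 1862 in EV, 2639 and 788 in ZR_GSK343, 3034 and 2904 in ZR_dmCitra, 688 and 2788 in ZR_DMSO, 1284 and 1075 in Citraconate_50K, and 1743 and 1636 in DMSO_50K, with no group apart from all others except ZR_dmCitra at the low end. Stat2, the STAT protein specific to type I and III signalling, ranked 4499 and 4876 in ZR, 6994 and 3259 in EV, 6832 and 5295 in ZR_GSK343, 3667 and 2881 in ZR_dmCitra, 2928 and 4189 in ZR_DMSO, 2260 and 3171 in Citraconate_50K, and 2027 and 2980 in DMSO_50K. The EV replicates lay on either side of both ZR replicates. Usp18, which removes Isg15 from proteins and dampens signalling at Ifnar2, ranked 2054 and 2036 in ZR, 3039 and 4457 in EV, 7422 and 4251 in ZR_GSK343, 1788 and 2662 in ZR_dmCitra, 10435 and 1757 in ZR_DMSO, 2875 and 3792 in Citraconate_50K, and 3641 and 4320 in DMSO_50K. The ZR_DMSO replicates differed most.

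The first comparison set ZR cells against EV cells and asked what the fusion changes. Of the 30 interferon genes with a gene-end peak in any of the 4 libraries, 23 had one in all 4, a share near that of all genes (9361 of 11925). Ifi209, Irf5 and Irf7 gained a gene-end peak and Tap2 and Ifi44 lost it. Among the 23, 8 genes ranked higher in both ZR libraries (34.8%, where 24.3% of all such genes did) and 6 ranked lower (26.1%, where 46.9% did). Away from gene ends 31 of 61 regions were gained, near 16 genes.

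Lists were compared at 34989 peaks each, and a gene was called gained when both ZR libraries and neither EV library had a peak, and lost in the opposite case. With 2 libraries against 2, an exact permutation test (two-sided) can reach no p below 0.333, so no single call can pass 0.05, and calls are given as counts beside the share called over all genes. Gained genes were 3 of 30 (10.0%), where 3.09% of all 11925 genes with a peak were gained. Lost genes were 2 of 30 (6.67%), where 6.92% of all genes were lost.

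Ifi209, of the interferon-inducible p200 family of DNA-binding proteins, had peaks at rank 10437 in ZR replicate 1 (chr1:173630332-173631254) and 8596 in ZR replicate 2, with fold enrichments of 19.2 and 21.5; these enrichments over background are the authors' own, given per peak. Both EV lists as deposited lacked it. Irf5, which acts in toll-like receptor signalling, had peaks at rank 30900 and 32523 in ZR (chr6:29526529-29527079 in replicate 1) and none in either deposited EV list, so that its call rests on weak peaks. Irf7, the main amplifier of type I interferon production, had peaks at rank 20427 and 28641 in ZR; EV replicate 2 had a deposited peak there at rank 40229, which does not overlap the ZR peaks. Tap2, a subunit of the transporter that carries peptides into the endoplasmic reticulum, had none in ZR replicate 2 and one at rank 43405 in ZR replicate 1, against ranks 21165 and 26168 in EV. Ifi44, an interferon-induced gene, had no peak in either deposited ZR list and peaks at rank 28664 and 33814 in EV (chr3:151749588-151749976 in replicate 1). Without EV replicate 1, the shortest list, the counts were 2 gained and 1 lost, with Irf7 and Tap2 no longer called. These 2 calls also ended with lists as deposited, and those of Irf5 and Ifi44 ended at −log10 q of at least 5; Ifi209 was called in each case.

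Of the 23 genes with a peak in all 4 lists, 8 ranked higher in both ZR libraries than in both EV libraries, 6 ranked lower and 9 overlapped. The 8 were Ifi204, Mx1, Mx2, Ifit1, Rsad2, Usp18, Gbp2 and Gbp3, and the 6 were Irf1, Irf2, Irf3, Irf8, Irf9 and Ifngr1. Ifi204, another p200 protein, ranked 215 in both ZR libraries (chr1:173766540-173767823 in replicate 1), against 17350 and 17286 in EV, the widest gap of the 23. Ifit1, which binds foreign RNA ends, ranked 14171 and 13225 in ZR against 30912 and 28426 in EV. Rsad2 (viperin, a radical enzyme that makes an antiviral nucleotide) ranked 10102 and 14323 in ZR against 16196 and 23920 in EV. The guanylate-binding protein gene Gbp3 ranked 2280 and 1962 in ZR against 4612 and 5309 in EV. Mx1, a dynamin-like antiviral GTPase, ranked 10572 and 13172 in ZR against 28073 and 28204 in EV, but the peaks lie at opposite ends of the gene. Without ZR replicate 1, 13 genes ranked higher; without ZR replicate 2, 12 ranked lower.

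Of the 6 genes that ranked lower, Irf8, known for its part in myeloid cells, ranked 22859 and 22365 in ZR against 6529 and 9665 in EV. Irf1, an activator induced by interferon gamma, ranked 20742 and 27334 in ZR against 9319 and 11614 in EV. Irf9, the DNA-binding partner of Stat2, ranked 29981 and 33744 in ZR against 19224 and 14914 in EV. In these 3 genes the 2 groups did not overlap, while Irf5 and Irf7, factors of the same family, gained a peak. The Irf2 peak of EV replicate 2 had its summit at 1500 bp from the start site. The summit lay at -143 bp in EV replicate 1 and at -125 and -144 bp in ZR. Stat2, Ifit2, Psmb9, Tap1, B2m, Ifih1, Ifngr2, Ifnar1 and Ifnar2 overlapped between ZR and EV.

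**Figure D2:**
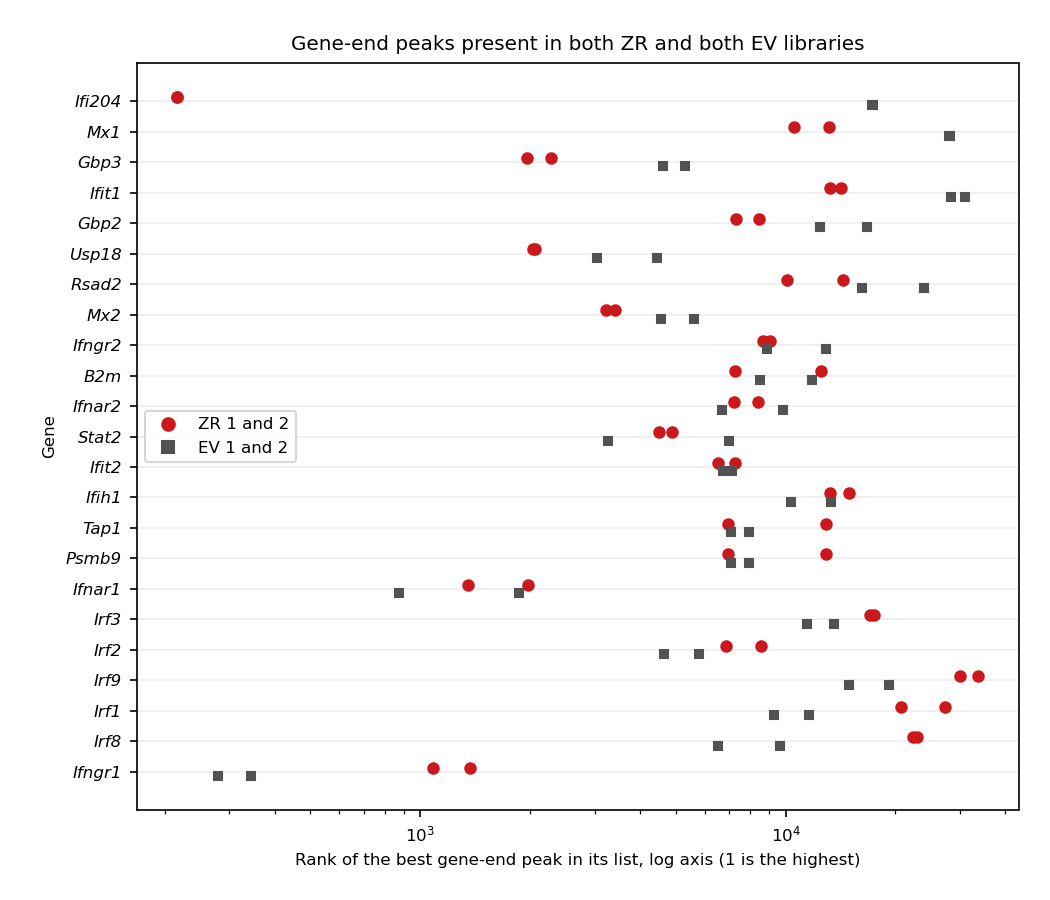
Rank of the best gene-end peak (log axis, 1 is the highest) of the 23 interferon response genes with one in both ZR (red circles) and both EV libraries (dark grey squares), each list holding 34989 peaks, ordered by the mean difference in log2 rank. Ifi204 at the top ranks 215 in both ZR libraries, and 6 genes at the bottom, among them Irf1, Irf8 and Ifngr1, rank lower in both ZR libraries than in both EV libraries.

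Away from gene ends, 61 regions lay near 29 of the genes, and 31 of them (50.8%) were gained in ZR, where 25.5% of all 32717 regions near protein-coding genes were gained. Lost regions were 8 (13.1%), where 21.4% were lost. Of the 31, 30 had no overlapping peak in either deposited EV list, 13 lay inside an interferon gene and 18 outside, and their median width was 552 bp. Irf2, the factor that competes with Irf1 for its sites, had 6 of them; Ifi209 and Mx1 had 3 each. The strongest lay inside Ifi209 (chr1:173645207-173646063), at rank 465 and 353 in ZR with fold enrichments of 75.1 and 79.6, and absent from both EV lists. The next were near B2m, the light chain of class I molecules (chr2:122163913-122164801, ranks 7018 and 5134, inside Patl2 and Trim69), and upstream of Ifnar1 (chr16:91475791-91476578, ranks 7229 and 5291). Near Ifi204 regions were gained at chr1:173737028-173737457, inside Ifi207, with ranks 9662 and 8597, and at chr1:173776481-173776940 with ranks 10848 and 8279.

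Of the 8 regions lost in ZR, 5 had no peak in either deposited ZR list, and those near Irf1, Irf2 and Isg15 had one beyond the length compared. The strongest lay 18304 bp from Gbp3 inside Gbp7 (chr3:142541135-142541712), at rank 4868 and 6910 in EV. A region near Bst2 (chr8:71527543-71527885) ranked 17148 and 23431 in EV, and one near Ifit3, a partner of Ifit1 (chr19:34598444-34598769), 28292 and 26296. A region near Irf9 inside Rnf31 (chr14:55596071-55596548) ranked 30386 and 27980, and one inside Ifngr1 (chr10:19599700-19600316) 24632 and 32382. Without EV replicate 1 the lost regions numbered 21, and the gained ones 31 to 36 without any 1 library.

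The stretch of 176 kb that holds Ifi209, Ifi208, Ifi207 and Ifi204 was looked at after its values were seen. The deposited lists held 10 and 8 peaks there in ZR against 1 and 1 in EV, where both EV peaks lay at the end of Ifi204. They covered 5998 and 5163 bp in ZR against 382 and 595 bp in EV. In the treated and vehicle libraries the stretch held 2 and 2 peaks in ZR_GSK343, 7 and 6 in ZR_dmCitra, 3 and 3 in ZR_DMSO, 4 and 3 in Citraconate_50K, and 9 and 9 in DMSO_50K. The peak at the end of Ifi204 was in all 14 lists, and the region inside Ifi209 in all but the 2 EV lists.

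**Figure D3:**
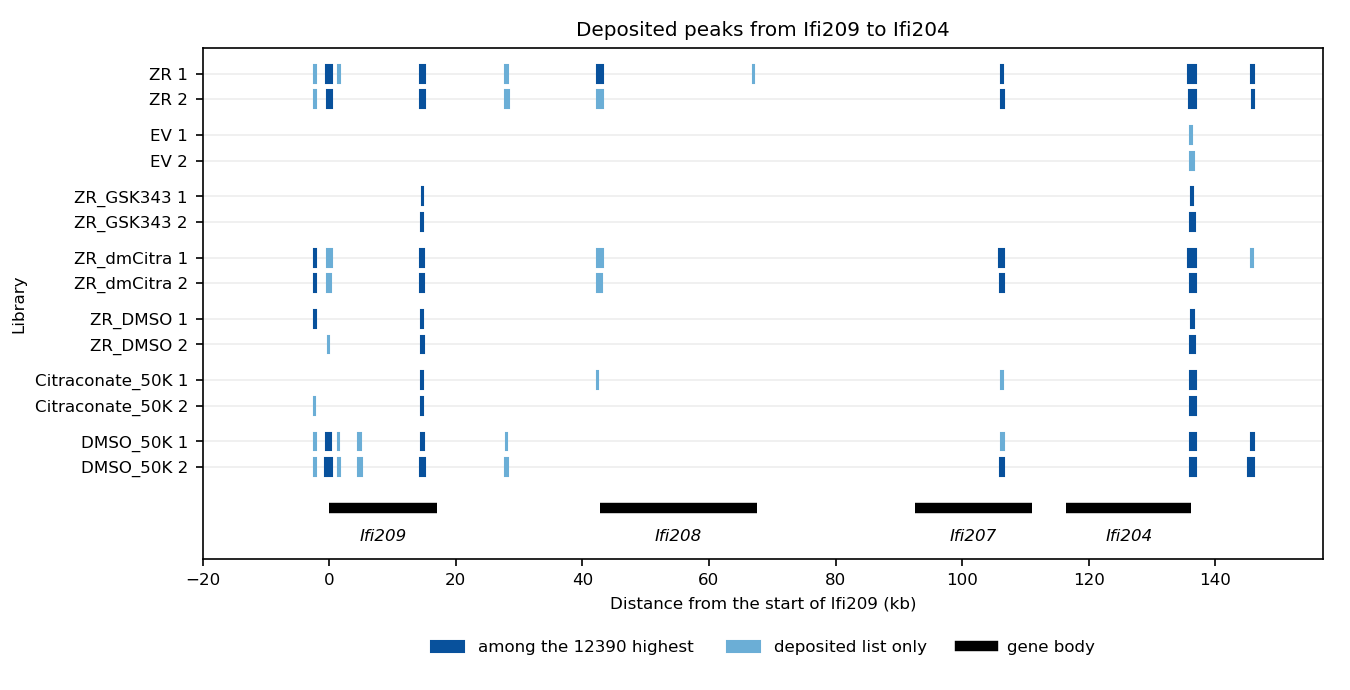
Deposited peaks in the 14 libraries along the 176 kb that hold Ifi209, Ifi208, Ifi207 and Ifi204, by distance in kb from the start of Ifi209. Dark bars are among the 12390 highest peaks of a list, light bars are in the deposited list only, and black bars are gene bodies; ZR replicates have 10 and 8 peaks, and EV replicates 1 each.

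A wider list of 75 other interferon pathway genes was read the same way; 3 more on the list were not found in the gene table. In ZR against EV 58 had a gene-end peak, of which 11 (19%) gained it, where 3.09% of all genes did, and 1, the RNA sensor gene Ddx58, lost it (1.72%, where 6.92% did). None of the 11 had a peak in a deposited EV list. The highest were Zbp1, a sensor of left-handed nucleic acid, at rank 5350 and 6346 in ZR, Trim30a at 6615 and 6410, the chemokine gene Cxcl10 at 8840 and 8167, and Ifitm3, which blocks viral entry, at 11179 and 11795.

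The second comparison set ZR_GSK343 against ZR_DMSO and asked what EZH2 inhibition changes in fusion cells. Irf1, Ifit2 and Tap2 gained a gene-end peak, 3 of 22 genes (13.6%), where 20.7% of all 9622 genes gained one. At −log10 q of at least 5 none of these 3 was called, and Ifngr2 and Ifnar2 were called gained in their place. Mx2 lost it, 1 of 22 (4.55%), where 0.405% did. Away from gene ends 0 of 13 regions were gained, where 5.38% of all 8047 were, and 3 (23.1%) were lost, where 12.4% were.

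Lists held 12390 peaks here. Irf1 ranked 11691 and 7427 in ZR_GSK343 (chr11:53769875-53770026 in replicate 1) and had no peak in either deposited ZR_DMSO list. Ifit2, an RNA-binding antiviral protein, ranked 10734 and 11237 in ZR_GSK343, and Tap2 9301 and 11999; both were absent from the deposited ZR_DMSO lists. ZR cells without DMSO in the title had the Ifit2 peak at rank 7252 and 6550, so ZR and ZR_DMSO differed there. Mx2 ranked 13907 and 12795 in the deposited ZR_GSK343 lists, just outside the length compared, against 8227 and 5071 in ZR_DMSO. Of 8 genes with a peak in all 4 lists, Ifngr1, Psmb9 and Tap1 ranked higher in both ZR_GSK343 libraries (37.5%, where 36.6% of all 3835 did) and Stat2 and Ifi204 lower (25.0%, where 17.9% did). Psmb9, an immunoproteasome subunit, and Tap1 share 1 peak in each list, so they count as 1 observation. In ZR_DMSO replicate 1 the shared peak lay over neither promoter and did not overlap that of replicate 2.

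The lost regions near interferon genes were a region of 112 bp near Ifngr2 (chr16:91534590-91534701), at rank 78 and 83 in ZR_DMSO and in no other deposited list, one near Mx1 inside Fam3b (chr16:97475647-97475850), at rank 11261 and 2139 in ZR_DMSO, and one near Ifih1, the gene of the long-RNA sensor MDA5 (chr2:62587717-62588070), at rank 8441 and 2832. The Ifih1 region had deposited peaks in both ZR_GSK343 lists, and the Mx1 region one in ZR_GSK343 replicate 2 at rank 13283, just beyond the length compared. The counts moved when a library was left out and when the control was changed. With 1 library left out, fewer libraries must agree for a call, which favours higher counts, and the lists can be longer. Gained genes were 9 and lost ones 2 without ZR_DMSO replicate 1, and 5 and 3 without ZR_GSK343 replicate 2. Gained regions were 4 without ZR_GSK343 replicate 1, 2 without replicate 2 and 3 without ZR_DMSO replicate 1; lost regions were 8 and 5 without ZR_DMSO replicates 1 and 2. The genes ranked higher were 6 and 7, and those ranked lower 4 and 4, without ZR_DMSO replicates 1 and 2, and 4 ranked lower without ZR_GSK343 replicate 1. With ZR in place of ZR_DMSO, Irf1, Irf5, Irf8 and Tap2 gained a gene-end peak, Mx1 and Ifi209 lost it, and 2 regions were gained and 8 lost. Lists held 19239 peaks there. Irf1, Irf5 and Irf8 had deposited peaks beyond that length in both ZR libraries, and Tap2 in ZR replicate 1. Mx1 had one beyond it in ZR_GSK343 replicate 2. Of the 75 pathway genes 40 had a peak, 5 (12.5%) gained it, below the 20.7% of all genes, and 1 lost it (2.5%, where 0.405% did). Traf3, an adaptor of RNA sensing, ranked 4594 and 4295 in ZR_GSK343, the nucleotide hydrolase gene Samhd1 6362 and 7129, Parp12 7392 and 10311, and the RNA-editing enzyme gene Adar 8339 and 10589. Zbp1 was the lost gene, at rank 11523 and 7308 in ZR_DMSO.

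The third comparison set ZR_dmCitra against the same 2 ZR_DMSO libraries, so its controls are shared with the second. No interferon gene gained a gene-end peak, 0 of 18, where 12.3% of all 7862 genes did, and Oasl1, Psmb9 and Tap1 lost it (16.7%), where 1.55% did. Psmb9 and Tap1 share 1 peak, so the 3 genes stand for 2 peaks, and Oasl1 alone was called lost at −log10 q of at least 5 or with lists as deposited. With a window of 500 bp in place of 1 kb, Psmb9 and Tap1 were called lost and Oasl1 was not. Away from gene ends 6 of 17 regions (35.3%) were gained, where 13.7% of all 8042 were, and 2 (11.8%) were lost, where 8.68% were.

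Oasl1, an oligoadenylate synthetase-like gene that restrains Irf7 translation, had a peak of 133 and 136 bp in ZR_DMSO at rank 140 and 126 (chr5:114922453-114922585 in replicate 1), its summit at -748 bp from the start site, and none in either deposited ZR_dmCitra list. Besides ZR_DMSO it was found in ZR_GSK343 replicate 2 at rank 5231 and in no ZR or EV list. The peak shared by Psmb9 and Tap1 ranked 22892 and 15245 in the deposited ZR_dmCitra lists, outside the length compared, against 11293 and 8420 in ZR_DMSO, where the peaks of the 2 replicates do not overlap each other. Of 8 genes in all 4 lists, Ifi204 ranked higher in ZR_dmCitra, at 113 and 242 against 847 and 1116 in ZR_DMSO (12.5%, where 47.2% of all 3862 did), and Ifnar1 lower (12.5%, where 10.8% did).

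The gained regions were near Ifi204 inside Ifi207 (chr1:173736752-173737479, ranks 4654 and 6117 in ZR_dmCitra), inside Irf2 (chr8:46811223-46811829, 7762 and 6798), inside Mx1 (chr16:97461118-97461876, 8907 and 5316) and near Mx1 inside Bace2 (chr16:97431121-97431782, 9261 and 10486); these 4 had no peak in either deposited ZR_DMSO list. A region near Ifnar1 (chr16:91522397-91522988) ranked 8574 and 8504 in ZR_dmCitra. That region and one near B2m had a deposited peak in ZR_DMSO replicate 2. All 6 overlapped regions gained in ZR against EV, and ZR with PBS vehicle had them. The lost regions were those near Ifngr2 and Ifih1 given above. The Ifih1 region had deposited peaks in both ZR_dmCitra lists, at rank 16669 and 28029, beyond the length compared. Without ZR_DMSO replicate 1, gained genes were 5, lost genes 1 and lost regions 5; without ZR_dmCitra replicate 1 or 2, 1 gene was gained. The genes ranked higher were 9 and 6 without ZR_DMSO replicates 1 and 2 and 2 without either ZR_dmCitra library; those ranked lower were 4 without ZR_DMSO replicate 1 and 2 without any other 1 library. With ZR in place of ZR_DMSO no gene was gained and Irf8 alone was lost, with 6 regions lost. Of the 75 pathway genes 40 had a peak, 6 (15%) gained it, near the 12.3% of all genes, and 1, the class I gene H2-K1, lost it (2.5%, where 1.55% did). The exonuclease gene Isg20 ranked 5744 and 5018 in ZR_dmCitra, while Parp9 and Dtx3l share 1 peak at 5858 and 10048.

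The fourth comparison set Citraconate_50K, labelled ZFTA-RELA, against DMSO_50K, labelled empty vector. Of 28 interferon genes 21 were open at a gene end in every one of the 4 lists, of 29432 peaks each, a share near that of all genes (8651 of 11348). No gene gained one (0 of 28), where 7.39% of all 11348 genes did, and Ifi209 lost it (3.57%), where 1.5% did. Regions away from gene ends were gained in 5 of 48 cases (10.4%), where 9.3% of all 23058 were, and lost in 6 (12.5%), where 18.5% were.

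Ifi209 had no gene-end peak in either deposited Citraconate_50K list and ranked 6256 and 5525 in DMSO_50K. Of the 21 genes in all 4 lists, 9 (42.9%) ranked higher in Citraconate_50K, where 62% of all 8651 did, and 5 (23.8%) ranked lower, where 10.7% did. Irf1 ranked 8334 and 6040 in Citraconate_50K against 21857 and 23911 in DMSO_50K. Irf2 ranked 2387 and 2399 in Citraconate_50K against 9471 and 12972 in DMSO_50K, and Irf3, which nucleic acid sensors activate, 2882 and 8217 against 21496 and 16831. The Irf2 summits lay at 1503 and 1431 bp from the start site in Citraconate_50K and at -164 bp in both DMSO_50K libraries. The Irf2 order thus compares peaks with unlike summits. Mx1, Psmb9, Tap1, B2m, Ifngr2 and Ifnar1 also ranked higher. The Mx1 peaks again lie at opposite ends of the gene, in both Citraconate_50K libraries at the end used in ZR and in both DMSO_50K libraries at the end used in EV, and Psmb9 and Tap1 again share 1 peak. Ifi204 ranked 1079 and 1120 in Citraconate_50K against 463 and 528 in DMSO_50K. Mx2 ranked 7283 and 9833 in Citraconate_50K against 3018 and 3585 in DMSO_50K, Gbp3 9271 and 10722 against 5874 and 3123, and Ifit2 13423 and 20991 against 11126 and 8010; Ifngr1 was the fifth. Set beside ZR against EV, Irf1, Irf2 and Irf3 ranked lower in ZR and higher in Citraconate_50K, and Mx2, Gbp3 and Ifi204 ranked higher in ZR and lower in Citraconate_50K, whereas Mx1 ranked higher and Ifngr1 lower in both comparisons; whether these orders differ was not tested.

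Regions lost in Citraconate_50K lay near Ifi204 (chr1:173776024-173776948, ranks 7084 and 6579 in DMSO_50K), inside Irf2 (chr8:46770671-46771629, 9066 and 10716), near Gbp3 inside Gbp7 (chr3:142540759-142541890, 16003 and 10000), near B2m inside Patl2 (chr2:122127311-122128288, 10663 and 18440) and inside Ifi209 (chr1:173635446-173636020, 17069 and 20718). All 5 lacked a peak in the deposited Citraconate_50K lists. The sixth lost region, near Gbp3 (chr3:142588699-142589623), ranked 2221 and 1706 in DMSO_50K and had a deposited peak at rank 30049 in Citraconate_50K replicate 1. All 5 gained regions, near Irf2, Irf3, Mx1, Mx2 and Rsad2, had a deposited peak in at least 1 DMSO_50K library beyond the length compared. The one near Mx2 (chr16:97533261-97534007) ranked 12291 and 18851 in Citraconate_50K, that near Irf3 (chr7:44983222-44983666) 25305 and 28514, that near Rsad2 (chr12:26459770-26460639) 17278 and 11171, that near Irf2 (chr8:46721112-46721650) 15241 and 19749, and that near Mx1 (chr16:97431429-97431904) 12290 and 20775. Without Citraconate_50K replicate 1 or 2, the counts were 1 and 4 genes gained, 2 and 2 lost, 10 and 9 regions gained, and 8 and 8 genes ranked lower. Lost regions were 12 without Citraconate_50K replicate 2 and 10 without DMSO_50K replicate 1, and lost genes 2 without DMSO_50K replicate 2. Of the 75 pathway genes 63 had a peak, 7 (11.1%) gained it, where 7.39% of all genes did, with deposited peaks in both DMSO_50K lists for each, and 0 lost it, where 1.5% did. They included Pml at rank 16843 and 18046 in Citraconate_50K, Gbp5 at 17990 and 19291 and Samhd1 at 16274 and 21160.

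**Figure D4:**
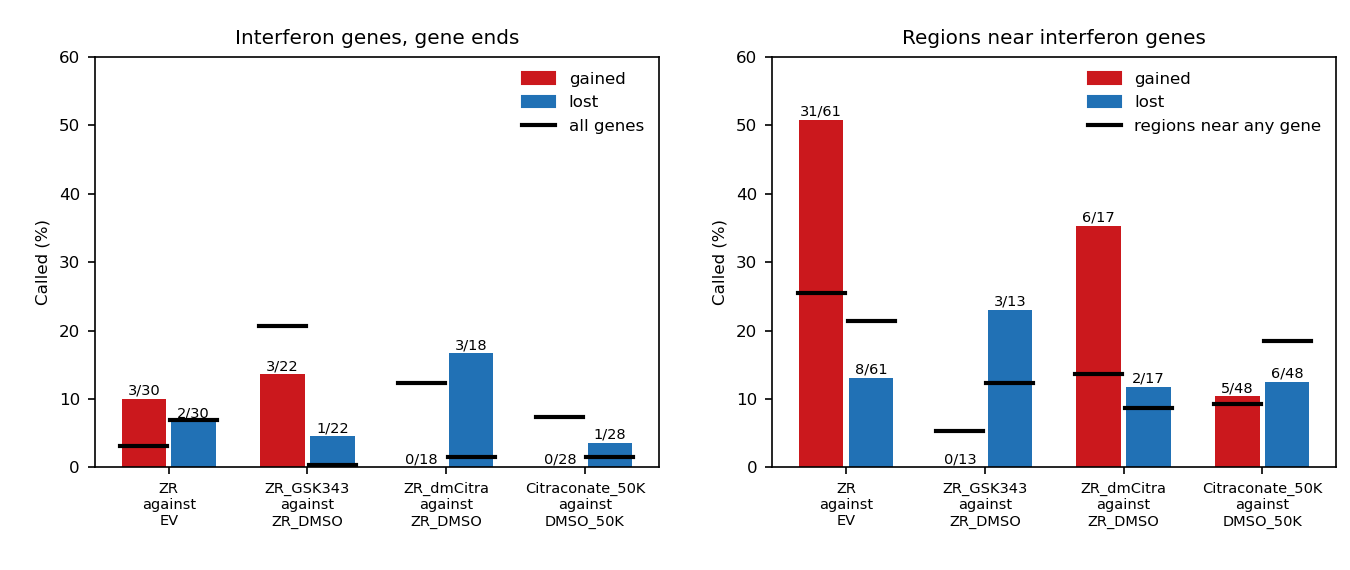
Share of interferon response genes (left) and of regions near them (right) called gained (red) or lost (blue) in the 4 comparisons, in percent of those with a peak; numbers over the bars give the counts. Black lines give the same share over all genes or regions: the tallest bar, 31 of 61 regions gained in ZR against EV, stands at 50.8% against 25.5%.

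Irf8 and Isg15, chosen for mention after their values were seen, split the groups in other ways. Irf8 was open at a gene end in both lists of ZR, EV, ZR_GSK343 and DMSO_50K and in none of ZR_dmCitra, ZR_DMSO and Citraconate_50K. Isg15 had one in both DMSO_50K lists, at rank 14011 and 9415, in 1 list each of ZR, ZR_dmCitra and Citraconate_50K, and in no EV, ZR_GSK343 or ZR_DMSO list.

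At a common length of 12390 peaks, the number of interferon genes with a gene-end peak differed little between groups. It was 15.5 ± 0.707 in ZR, 15.5 ± 0.707 in EV, 18 ± 1.41 in ZR_GSK343, 13.5 ± 0.707 in ZR_dmCitra, 13.5 ± 3.54 in ZR_DMSO, 17.5 ± 0.707 in Citraconate_50K and 16 ± 1.41 in DMSO_50K, of 38 genes (SD, n = 2 each). In every library the share of interferon genes was above that of all genes; in EV it was 39.5% and 42.1%, against 35.5% and 36% of all genes. Away regions differed more. Of 32 regions, ZR had 10 ± 0, EV 3 ± 0, ZR_GSK343 3.5 ± 2.12, ZR_dmCitra 11 ± 0, ZR_DMSO 6 ± 0, Citraconate_50K 10.5 ± 2.12 and DMSO_50K 13.5 ± 0.707. EV thus had peaks at 9.38% of the regions near interferon genes, where it had 26.3% and 25.9% of the regions near any gene, while ZR had 31.3% against 31.2% and 31.1%.

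**Figure D5:**
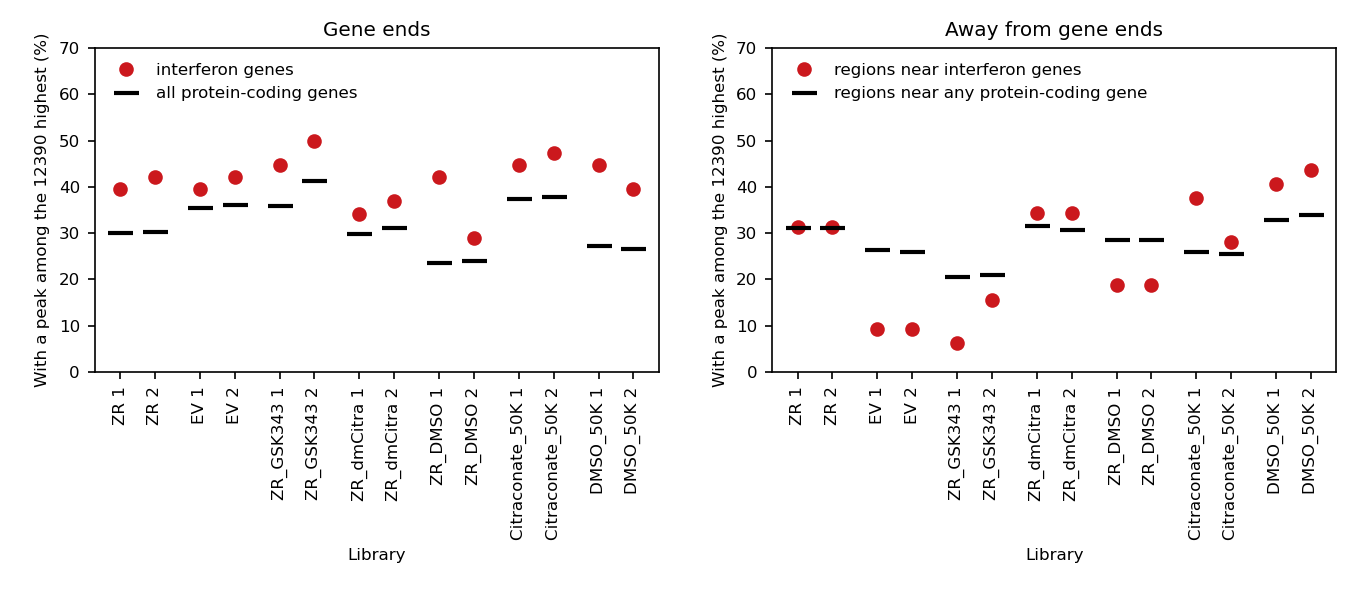
Share with a peak among the 12390 highest of each list, in percent, for gene ends (left; red points interferon response genes, black dashes all protein-coding genes) and regions away from gene ends (right; red points regions near interferon response genes, black dashes regions near any protein-coding gene). Both EV libraries stand at 9.38% of the regions near interferon genes, below their dashes, and both ZR libraries at 31.3%, on theirs.

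The 31 regions gained in ZR against EV were looked up in the other deposited lists, whose lengths differ. ZR_dmCitra had 25 and 25 of them (80.6%), where it had 86.4% ± 1.28 of all 8342 gained regions, and Citraconate_50K 19 and 19 (61.3%), where it had 46.4% ± 1.82 (SD, n = 2 libraries each). DMSO_50K had 26 and 28 (mean 87.1%), where it had 82.1% ± 4.05 of all gained regions. ZR_GSK343 had 4 and 15 (mean 30.6%), where it had 33.1% ± 36.2. ZR_DMSO had 3 and 10 (mean 21%), where it had 24.4% ± 10.8. The last 2 groups have replicates of unlike length.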

How the data were processed

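The peak lists were deposited by the authors, 1 per library. Each peak carries a fold enrichment (a ratio), −log10 p and −log10 q values and a score, in columns that the authors' MACS2 peak names and the layout of the deposited files identify. BWA, SAMtools, Picard and mm10 are named in the submitters' processing notes; for versions, settings and any Tn5 read shift, values were not given in the sources used here. The lists hold no counts, so the depth is unknown and no interval that needs it is given. Peaks were called per library.

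Here, lists were ranked by −log10 q and reduced to equal length before each comparison, with Python 3.11.15, pandas 2.3.3, numpy 2.4.6 and matplotlib 3.10.9. Overlap was at least 1 bp, and peaks behind 1 gene-end call need not overlap each other. Genes came from the RefSeq table of GRCm38.p6. The calling steps were tested on simulated data. Members and lists were chosen with earlier results of these data known. Full values are given for genes called in any comparison or with a peak in every list at common length, up to 5 regions per direction by the poorer rank (those without a deposited peak in the other group first) and up to 4 pathway genes, of which some are not reported here. Alternatives were deposited length, ranking by fold, −log10 q of at least 5, 50% overlap, windows of 500 bp and 2 kb, 10 kb distance, ZR as control, a replicate block and each library left out. Listed start sites and the rank order were added after seeing the data. Replicate deviations correlated at -0.00352, 0.0198, -0.034 and -0.0455 in the 4 comparisons. The ranks thus gave no sign of a pairing by replicate number, which these correlations cannot exclude.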

Additional observations from a re-analysis of the deposited data

How the results depend on the processing

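Ranking by fold enrichment moved no count by more than 1.5 times, but it is no separate check. Among the peaks of these genes, equal fold within a list came with equal −log10 q, and both rankings gave the same rank-order counts. With lists as deposited, genes lost in ZR against EV numbered 1 and regions lost 5. ZR_GSK343 against ZR_DMSO gave 8 genes gained, 0 lost, 4 regions gained and 1 lost, ZR_dmCitra against ZR_DMSO 9, 1, 23 and 1, and Citraconate_50K against DMSO_50K 3 genes lost, 0 regions gained and 17 lost. Genes per library at deposited length averaged 28.5 in ZR, 26.5 in EV, 26 in ZR_GSK343, 27.5 in ZR_dmCitra, 24.5 in Citraconate_50K and 27.5 in DMSO_50K, and regions 43.5, 21, 22, 40.5, 29 and 55.5 in the same groups and 10 in ZR_DMSO. At −log10 q of at least 5, 1 gene was lost in ZR against EV and 1 in ZR_dmCitra against ZR_DMSO, and the 2 genes gained in ZR_GSK343 against ZR_DMSO, Ifngr2 and Ifnar2, were not among the 3 of the main comparison; genes per library were 14 in EV, 15.5 in ZR_GSK343, 12.5 in ZR_dmCitra and 14.5 in DMSO_50K, and regions 8.5 in ZR, 9.5 in ZR_dmCitra, 4.5 in ZR_DMSO, 6 in Citraconate_50K and 12 in DMSO_50K. Listed start sites gave 1 gene lost in ZR against EV and 0 in ZR_GSK343 against ZR_DMSO. The calls that ended were Tap2 and Mx2, which have no listed start site and so could not be called. A window of 500 bp gave 0 genes lost in ZR_GSK343 against ZR_DMSO. In ZR_dmCitra against ZR_DMSO 1 gene was gained at 500 bp, Mx2, and 1 at 2 kb, Mx1. At 10 kb, ZR_GSK343 lost 1 region, ZR_dmCitra gained 3 and lost 1, and Citraconate_50K gained 2 and lost 3; at 50% overlap Citraconate_50K lost 15. With ZR as control, ZR_GSK343 lost 2 genes, gained 2 regions and lost 8, and ZR_dmCitra lost 1 gene and 6 regions. The cause of the other moves was not tested.

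Leaving out 1 library at a time gave, for ZR against EV, 2 to 4 genes gained, 1 to 2 lost, 31 to 36 regions gained, 8 to 21 lost, 8 to 13 genes ranked higher and 6 to 12 lower. For ZR_GSK343 against ZR_DMSO the ranges were 3 to 9, 1 to 3, 0 to 4, 3 to 8, 3 to 7 and 2 to 4, for ZR_dmCitra against ZR_DMSO 0 to 5, 1 to 3, 6 to 9, 2 to 5, 2 to 9 and 2 to 4, and for Citraconate_50K against DMSO_50K 0 to 4, 1 to 2, 5 to 10, 8 to 12, 10 to 12 and 6 to 8, in the same order. Fewer libraries must agree for a call when 1 is left out, which favours higher counts, and the lists can be longer. These ranges thus mix a looser rule with dependence on single libraries. The replicate block left the calls of gained and lost as they were by construction, and gave 2 genes ranked lower in ZR_dmCitra against ZR_DMSO. Whether replicate numbers pair the libraries is not known. The unknown depth and 2 libraries per group limit every comparison.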
